A study of Mus musculus with 8 samples.

Results

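Neurotrophins and the ciliary neurotrophic factor (CNTF) group are secreted survival factors for motor and sensory neurons, and 9 genes for these ligands and their receptors were followed in MLC/SOD1G93A and FVB mice, in the ventral part of the lumbar cord. The members were Bdnf, Ntf3, Ntf5, Ntrk2, Ntrk3, Ngfr, Cntf, Cntfr and Lifr, taken as every array row whose annotated symbol is, or includes, one of these names. Of these, 8 genes had a row each among 41345 transcript clusters, the array's unit for 1 gene, and Ntf3 was not analysed here. In 7 of the 8 rows the member was the only symbol, while the Cntf row also carried Zfp91 and Gm44505.

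The transgene of the MLC/SOD1G93A mice, a mutant human SOD1, is driven by the myosin light chain promoter, which is active in skeletal muscle, so the cord itself is not the tissue that the promoter targets. The reference strain was FVB, which is also the labelled strain of the transgenic mice, and both groups were 120 days old. Total RNA of each sample was hybridized to 1 Affymetrix Mouse Gene 2.0 ST array, with 4 arrays per genotype. Whether every array stands for its own animal is not in the labels, so the spread that enters each p-value may be partly technical.

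The ligands bind receptors that differ in their partners. Brain-derived neurotrophic factor (Bdnf) and neurotrophin 5 (Ntf5) act through the receptor tyrosine kinase TrkB (Ntrk2), while neurotrophin 3 acts mainly through TrkC (Ntrk3). The receptor p75 (Ngfr) binds all neurotrophins, and in adult tissue it is known from sensory neurons, from some Schwann cells and from injured motor neurons. CNTF, a product of myelinating Schwann cells in peripheral nerve, signals through its own receptor subunit (Cntfr) together with the leukaemia inhibitory factor receptor (Lifr) and the shared chain gp130.

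All values are log2 signals as deposited, so a difference of 1 is a 2-fold change, and differences are MLC/SOD1G93A minus FVB. None of the family differed between the genotypes beyond the threshold. With limma, 0 of the 8 rows had an adjusted p under 0.05 (background 0% of all clusters) and 0 had an unadjusted p under 0.05 (background 6.7%, made of 3.61% higher and 3.08% lower). The methods' t-test gave 2 of the 8, Ntrk3 (unadjusted p = 0.0157) and Cntf (unadjusted p = 0.0494), and none after adjustment. By that test 1423 of the 41345 clusters were higher and 1379 lower at an unadjusted p under 0.05. The study's own cut-offs, a fold above 1.5 together with an unadjusted p under 0.05, were passed by 0 rows (background 0.97%). The differences were above 0 in 5 rows and below 0 in 3 (background 51.2% above 0), and their median was 0.08, beside 0.0041 over all clusters.

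Mouse Sod1, which is not the human transgene and does not check the genotype labels, was at 10.78 to 10.90 on the MLC/SOD1G93A arrays and at 10.80 to 10.95 on the FVB arrays. Neuron markers were at like levels in both groups, with a list mean over 8 genes of 10.65 to 10.74 (MLC/SOD1G93A) and 10.60 to 10.73 (FVB). The list mean over 6 motor neuron markers was 6.54 to 7.01 and 6.52 to 6.95. Neither list tells whether tissue outside the ventral cord was included. Markers of the sensory neurons that sit in the ganglia beside the cord set 4 arrays apart. Over 9 such genes the list mean was 6.57 and 6.60 on MLC/SOD1G93A replicates 1 and 2 and 6.01 and 6.12 on FVB replicates 2 and 4, against 4.73 to 4.86 on the other 4 arrays, and each of the 9 genes separated the arrays in the same way. Schwann cell markers ran with genotype, with 11 of 11 genes higher in MLC/SOD1G93A cord. Of these, 9 had a limma unadjusted p under 0.05 (background 3.61% of all clusters higher) and 0 an adjusted p under 0.05. The study had already listed Pmp22, Egr2, Drp2, Dhh, Gldn and Cldn19 of this list as up-regulated in these same data. These counts are therefore not separate support for a shift. The Schwann cell list mean was 7.24 to 7.80 on MLC/SOD1G93A arrays and 6.80 to 7.37 on FVB arrays. Oligodendrocyte markers ran the other way (9 of 9 lower, 9.58 to 9.90 on MLC/SOD1G93A arrays and 9.95 to 10.20 on FVB arrays). Caudal Hox genes, which mark position along the cord, were higher in 8 of 8 (list means 6.49 to 7.17 and 5.33 to 6.72). Of these last lists, the study had also reported Opalin and Mag as lower and Hoxd10 and Hoxc13 as higher in these data. Where a marker list runs with genotype, a fit with that list as covariate cannot tell its part from that of genotype. The part of these shifts in the family's values was not tested. Xist was high, at 10.4 to 10.5, on MLC/SOD1G93A replicates 3 and 4 and FVB replicate 4, and at 4.50 or below on the rest. The sex of the mice is not in the labels.

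**Figure D1:**
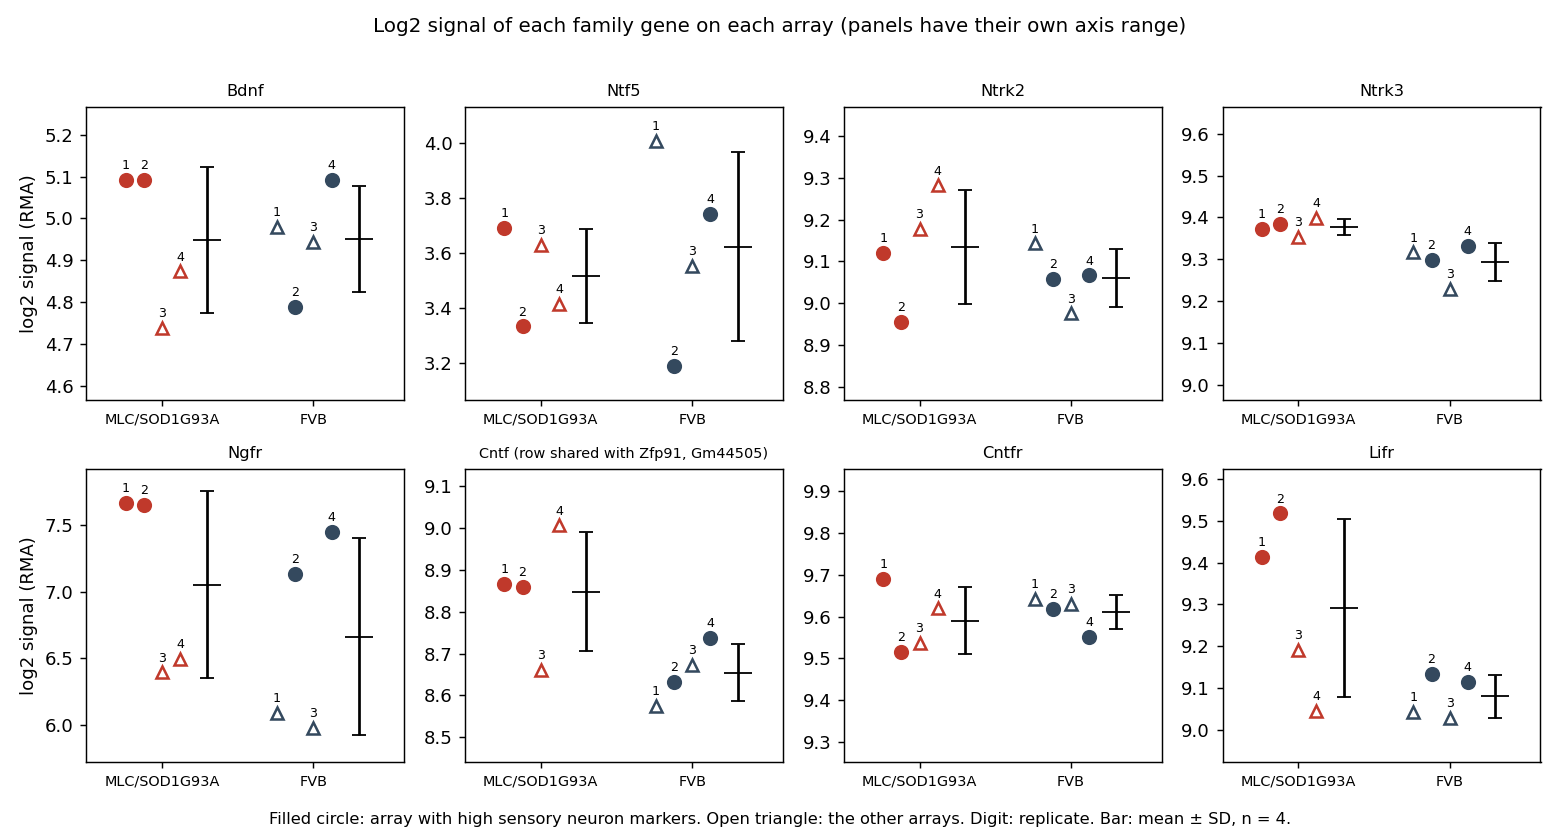
Log2 signal of the 8 family genes on each array, MLC/SOD1G93A on the left and FVB on the right of every panel, with the replicate number above each point and the mean ± SD (n = 4) beside it. Filled circles are the 4 arrays with high sensory neuron markers, and on Ngfr all 4 lie above every open triangle.

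Of the ligands, Bdnf averaged the same in both genotypes. Its log2 signal was 5.09, 5.09, 4.74 and 4.87 on MLC/SOD1G93A replicates 1 to 4, against 4.98, 4.79, 4.94 and 5.09 on FVB replicates 1 to 4. The ranges of the genotypes lay almost on top of each other. The means were 4.95 ± 0.17 and 4.95 ± 0.13 (SD, n = 4), and the difference was −0.0017 ± 0.11 (SE, limma adjusted p = 0.998), with a 95% confidence interval of −0.25 to 0.24. Both genotypes sat below the median array signal of 5.33 to 5.37, and the file holds no detection call, so how much of this signal is background cannot be read from it.

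Ntf5, the other ligand of TrkB, had the dimmest row of the family. Its log2 signal was 3.69, 3.33, 3.63 and 3.41 on MLC/SOD1G93A replicates 1 to 4, against 4.01, 3.19, 3.55 and 3.74 on FVB replicates 1 to 4. The FVB arrays held both the highest and the lowest value, and enclosed all of the MLC/SOD1G93A arrays. The difference was −0.11 ± 0.17 (SE, limma adjusted p = 0.934), with a 95% confidence interval of −0.50 to 0.29. The mean over all arrays, 3.57, was higher than that of only 17.1% of all clusters, a rough position since probes differ in brightness.

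The Trk receptors were bright and steady. Ntrk2, whose product TrkB is known both from neurons and, in a shortened form, from astrocytes, had a log2 signal of 9.12, 8.96, 9.18 and 9.28 on MLC/SOD1G93A replicates 1 to 4. The FVB replicates 1 to 4 were at 9.14, 9.06, 8.98 and 9.07. One MLC/SOD1G93A array lay below all FVB arrays and another 2 above them. The difference was 0.07 ± 0.09 (SE, limma adjusted p = 0.908), and its 95% confidence interval ran from −0.12 to 0.27. The row sums over the gene, so the full-length and shortened forms of the receptor cannot be told apart. Astrocyte markers were lower in MLC/SOD1G93A cord in 8 of 9 genes, with list means of 8.88 to 9.22 on MLC/SOD1G93A arrays and 9.26 to 9.37 on FVB arrays, and their part in the Ntrk2 value was not tested.

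Ntrk3 was the one member whose genotypes did not overlap. Its log2 signal was 9.37, 9.39, 9.35 and 9.40 on MLC/SOD1G93A replicates 1 to 4, against 9.32, 9.30, 9.23 and 9.33 on FVB replicates 1 to 4. Every MLC/SOD1G93A array thus lay above every FVB array, a pattern with MLC/SOD1G93A higher in 2.11% of all clusters (and with MLC/SOD1G93A lower in 2.1%). The step was small, 1.06-fold, or 0.08 ± 0.06 (SE, limma adjusted p = 0.844), with a 95% confidence interval of −0.06 to 0.22. The exact two-sided permutation p was 0.0286, the smallest that 4 against 4 arrays can give. Any row without overlap gets this value, so it only restates that pattern. The spread within genotypes was unusually narrow, with an SD of 0.020 on MLC/SOD1G93A arrays and 0.046 on FVB arrays, and only 0.402% of clusters had a pooled SD this small or smaller. Limma, which draws such SDs toward the typical cluster, gave an unadjusted p of 0.209 where the methods' t-test gave 0.0157.

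**Figure D2:**
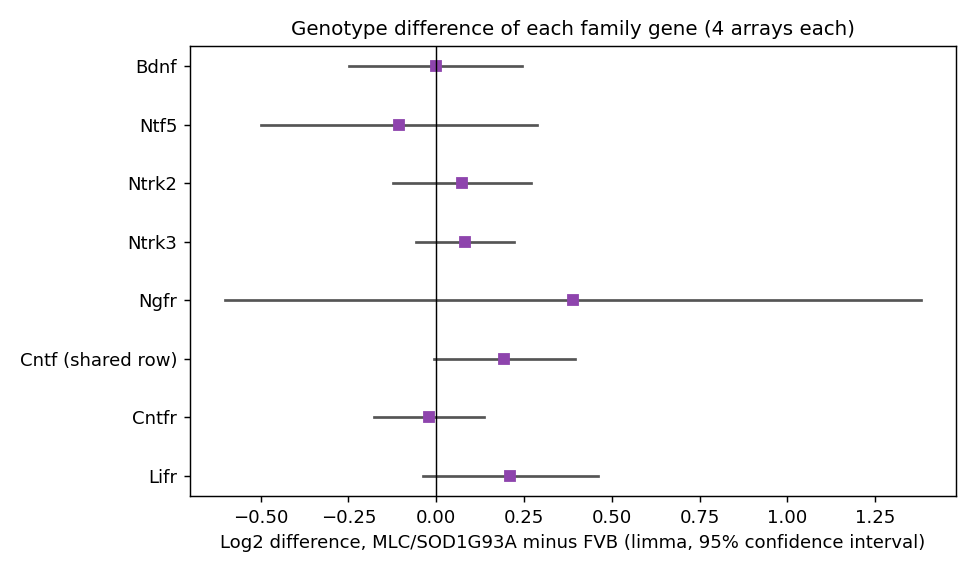
Log2 difference of each family gene, MLC/SOD1G93A minus FVB, with its 95% confidence interval from limma (4 arrays per genotype). Every interval includes 0, that of Ngfr being the widest (−0.60 to 1.38) and that of Cntf ending closest to it (−0.0075 to 0.39).

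Ngfr varied most across the arrays, and the sensory neuron markers parted its values by more than genotype did. Its log2 signal was 7.66, 7.65, 6.39 and 6.50 on MLC/SOD1G93A replicates 1 to 4, against 6.09, 7.13, 5.98 and 7.45 on FVB replicates 1 to 4. The high values stood on MLC/SOD1G93A replicates 1 and 2 and FVB replicates 2 and 4, which are the 4 arrays with high sensory neuron markers. On these the mean was 7.47, against 6.24 on the other 4, a gap of 1.23, and the lowest of the 4 (7.13) was above the highest of the rest (6.50). Ngfr was the only one of the 8 rows to part these sets fully, as did 1.73% of all clusters. The sets were read from the data and are not groups of the study, so this gap is a description without a test.

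Between genotypes, Ngfr averaged 7.05 ± 0.70 in MLC/SOD1G93A cord and 6.66 ± 0.74 in FVB cord (SD, n = 4). The difference of 0.39 ± 0.43 (SE, limma adjusted p = 0.900), a 1.31-fold step, was smaller than the SD within either genotype. Within each set of arrays it was of about the same size and the genotypes did not overlap. It was 0.37 where the sensory neuron markers were high (MLC/SOD1G93A replicates 1 and 2 over FVB replicates 2 and 4) and 0.41 on the remaining arrays. Each set holds only 2 arrays per genotype, and Ntrk3 and Lifr also did not overlap in either set. The share of all clusters with this pattern was not taken. For Lifr the low set barely parted, with MLC/SOD1G93A replicate 4 at 9.045 and FVB replicate 1 at 9.044. With the set as a block, an alternative added after the data were seen, the Ngfr difference was 0.39 ± 0.09 (SE) with a limma unadjusted p of 0.0028 and an adjusted p of 0.636. With the sensory neuron marker mean as a covariate it was 0.16 ± 0.11 (SE, limma unadjusted p = 0.197), and with the Schwann cell marker mean it turned to −0.74 ± 0.57 (SE, limma unadjusted p = 0.236). On MLC/SOD1G93A replicate 4 the Schwann cell mean was 7.63, among the higher values, while Ngfr was low at 6.50. In these bulk samples, more cells of a type and more RNA per cell cannot be told apart.

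The genes with the profile most like that of Ngfr over the 8 arrays, among 13212 single-symbol genes above the median cluster, were Trarg1 (Pearson r = 0.978), Scn10a (r = 0.975) and Avil (r = 0.973). Scn10a, a sodium channel of pain-sensing neurons, and Avil, the actin binding protein advillin of sensory neurons, are both in the sensory marker list. Scn10a was at 8.29 and 8.72 on MLC/SOD1G93A replicates 1 and 2 and at 7.15 and 7.37 on FVB replicates 2 and 4, against 4.16 to 4.21 (MLC/SOD1G93A) and 3.90 to 3.94 (FVB) on the other 4 arrays. These r values come from a search over many genes with 8 points in 2 clusters, and are given only to rank the genes.

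**Figure D3:**
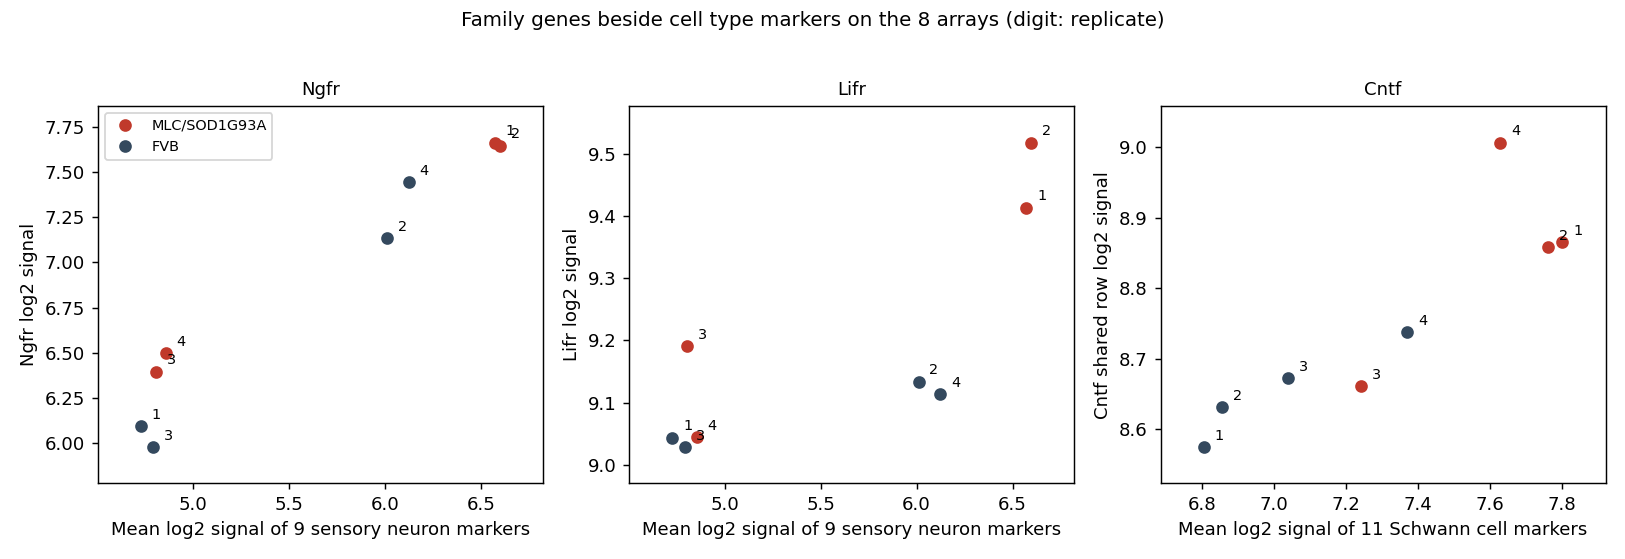
Log2 signal of Ngfr and Lifr against the mean of 9 sensory neuron markers, and of the Cntf row against the mean of 11 Schwann cell markers, on each of the 8 arrays (red MLC/SOD1G93A, dark FVB, digit for the replicate). Ngfr falls into 2 clusters of 4 arrays, with MLC/SOD1G93A above FVB in each, while Lifr is highest on MLC/SOD1G93A replicates 1 and 2 only.

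Cntf and Lifr had the lowest limma unadjusted p of the 8 rows, while by the methods' t-test Ntrk3 came first. The Cntf row, shared with the neighbouring gene Zfp91 and with Gm44505, had a log2 signal of 8.87, 8.86, 8.66 and 9.01 on MLC/SOD1G93A replicates 1 to 4. The FVB replicates 1 to 4 were at 8.58, 8.63, 8.67 and 8.74. MLC/SOD1G93A replicate 3 lay within the FVB range and the other 3 above it. The means were 8.85 ± 0.14 in MLC/SOD1G93A cord and 8.65 ± 0.07 in FVB cord (SD, n = 4), a difference of 0.19 ± 0.09 (SE), or 1.14-fold, with a limma unadjusted p of 0.0573 and an adjusted p of 0.747. Which of the 3 transcripts carries the signal cannot be told apart on this row.

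The Cntf row and the Schwann cell markers ranked the FVB arrays alike, and the MLC/SOD1G93A arrays only in part. MLC/SOD1G93A replicate 3 had both the lowest Cntf signal (8.66) and the lowest Schwann cell mean (7.24) of its genotype, and FVB replicate 4 had the highest of both (8.74 and 7.37) in FVB. The highest Cntf signal of all arrays (9.01) was on MLC/SOD1G93A replicate 4. Its Schwann cell mean (7.63) was below those of replicates 1 and 2 of that genotype (7.80 and 7.76). Once the Schwann cell mean, which itself ran with genotype, entered the fit, the Cntf difference was 0.0015 ± 0.13 (SE, limma unadjusted p = 0.991). With the sensory neuron mean it was 0.18 ± 0.09 (SE, limma unadjusted p = 0.0866). Without MLC/SOD1G93A replicate 3, whose removal ends the overlap, it was 0.26 with a limma unadjusted p of 0.0142 and an adjusted p of 0.773. Without replicate 4 of the same genotype it was 0.14 (limma unadjusted p = 0.148), and over the other 6 arrays left out in turn it ran from 0.17 to 0.22.

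Lifr, the signalling receptor shared by CNTF and leukaemia inhibitory factor, was higher on part of the transgenic arrays. Its log2 signal was 9.41, 9.52, 9.19 and 9.04 on MLC/SOD1G93A replicates 1 to 4, against 9.04, 9.13, 9.03 and 9.11 on FVB replicates 1 to 4. MLC/SOD1G93A replicates 1 to 3 lay above all FVB arrays and replicate 4 among them. The difference was 0.21 ± 0.11 (SE), or 1.16-fold, with a limma unadjusted p of 0.0873, an adjusted p of 0.776 and a 95% confidence interval of −0.04 to 0.46. The spread was wider in MLC/SOD1G93A cord (SD 0.21) than in FVB cord (SD 0.051).

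The step in Lifr had another size in each set of arrays. Among the arrays with high sensory neuron markers MLC/SOD1G93A was 0.34 above FVB, and among the other 4 it was 0.08 above. Among the 5 arrays with low Xist it was 0.40 above (limma unadjusted p = 0.0101, adjusted p = 0.720, a fit added after the data were seen), while among the 3 arrays with high Xist (2 MLC/SOD1G93A, 1 FVB) the means were 9.12 and 9.11. Both markers divide the MLC/SOD1G93A arrays in the same way, into replicates 1 and 2 and replicates 3 and 4, so within that genotype they cannot be told apart. Whether the Lifr difference itself differs between sets was not tested. Without MLC/SOD1G93A replicate 4 the difference was 0.29 (limma unadjusted p = 0.0179, adjusted p = 0.777), and without replicate 2 of that genotype it was 0.14 (limma unadjusted p = 0.219, adjusted p = 0.880). Once the Schwann cell mean, which itself ran with genotype, entered the fit it was 0.06 ± 0.18 (SE, limma unadjusted p = 0.751). The profiles most like it, ranked by Pearson r over the 8 arrays, were those of Mctp2 (0.976), Tmem74 (0.972) and Wdr48 (0.970), each also highest on MLC/SOD1G93A replicates 1 and 2.

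Cntfr, the subunit that gives the receptor its affinity for CNTF and that motor neurons are known to express, had close means in both genotypes. Its log2 signal was 9.69, 9.52, 9.54 and 9.62 on MLC/SOD1G93A replicates 1 to 4, against 9.64, 9.62, 9.63 and 9.55 on FVB replicates 1 to 4. The MLC/SOD1G93A arrays spread to both sides of the FVB arrays. The means were 9.59 ± 0.08 and 9.61 ± 0.04 (SD, n = 4), the difference was −0.020 ± 0.069 (SE, limma adjusted p = 0.972) and the 95% confidence interval was −0.18 to 0.14, the narrowest bounds but that of Ntrk3.

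A fold of 1.5, the size the study took as its threshold, is 0.58 on the log2 scale. For 7 of the 8 rows the whole 95% confidence interval lay within that size in either direction. Ngfr was the exception, and there these arrays set no such limit. The limits are those of the row's signal, which may be partly background in the dim Bdnf and Ntf5 rows. For Cntf the row is shared with Zfp91 and Gm44505.

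The other genes of the pathway were read from lists and described by counts. Of 15 partners and processing enzymes of the neurotrophins, 6 were above 0 and 9 below, with a median difference of −0.019, and 1 had a limma unadjusted p under 0.05 (background 6.7% of all clusters, a like share). This was Plat, tissue plasminogen activator, which makes plasmin, a protease that can cut the precursor of BDNF to its mature form. Plat was at 7.81, 7.68, 7.61 and 7.91 on MLC/SOD1G93A replicates 1 to 4, against 8.12, 7.99, 8.52 and 7.93 on FVB replicates 1 to 4. The genotypes did not overlap (background 2.1% with MLC/SOD1G93A lower), and the difference was −0.39 ± 0.14 (SE), 1.31-fold lower, with a limma unadjusted p of 0.0223. Furin, a convertase that cuts neurotrophin precursors inside the cell, also did not overlap, at 7.16 to 7.20 on MLC/SOD1G93A arrays and 7.25 to 7.38 on FVB arrays (limma unadjusted p = 0.0601). It was named after its values were seen, as were Jak2, Timp1, Il6st, Stat3 and Sort1. Sort1, sortilin, the partner of p75 for neurotrophin precursors, differed by −0.08 ± 0.06 (SE).

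Of 20 genes that carry the signal from the Trk receptors, adaptors and kinases, 9 were above 0 and 11 below, none with a limma unadjusted p under 0.05, and the median was −0.00067. The gp130 list of 18 cytokines, receptors and signalling proteins split 10 above and 8 below with a median of 0.0028, again with none under 0.05. Its shared chain gp130 (Il6st) differed by −0.04 ± 0.11 (SE), and the transcription factor Stat3, which the CNTF receptor complex activates, by −0.09 ± 0.08 (SE). Jak2, a kinase of these receptors, was the only gene of the list without overlap (background 2.11% with MLC/SOD1G93A higher). It was at 7.99 to 8.13 on MLC/SOD1G93A arrays and 7.89 to 7.98 on FVB arrays (limma unadjusted p = 0.166).

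Among downstream genes, 3 of 12 targets of Trk and CREB signalling were above 0 and 9 below, with a median of −0.05. Spry2, a feedback inhibitor of receptor tyrosine kinases, was at 6.71, 6.85, 6.93 and 6.64 on MLC/SOD1G93A replicates 1 to 4, against 7.05, 7.04, 7.14 and 6.87 on FVB replicates 1 to 4. The genotypes overlapped by 1 array, and the difference was −0.24 ± 0.09 (SE, limma unadjusted p = 0.0298). Of 10 STAT3 targets, 3 were above 0 and 7 below, with a median of −0.13. Gfap, the astrocyte filament gene, was the one with a limma unadjusted p under 0.05 (background 6.7%). It was at 9.30 to 9.96 on MLC/SOD1G93A arrays and 10.04 to 10.51 on FVB arrays, a difference of −0.61 ± 0.17 (SE, limma unadjusted p = 0.0066). Timp1, an inhibitor of metalloproteases, also did not overlap, at 3.91 to 4.04 and 4.07 to 4.20 (limma unadjusted p = 0.0749, background 2.1% with MLC/SOD1G93A lower). Its row was dim, with a mean at or above that of only 24.3% of all clusters. Gfap is itself a gene of the astrocyte list given above, so the lower values of that list are not separate from it. No gene of the 5 lists passed the adjusted threshold.

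**Figure D4:**
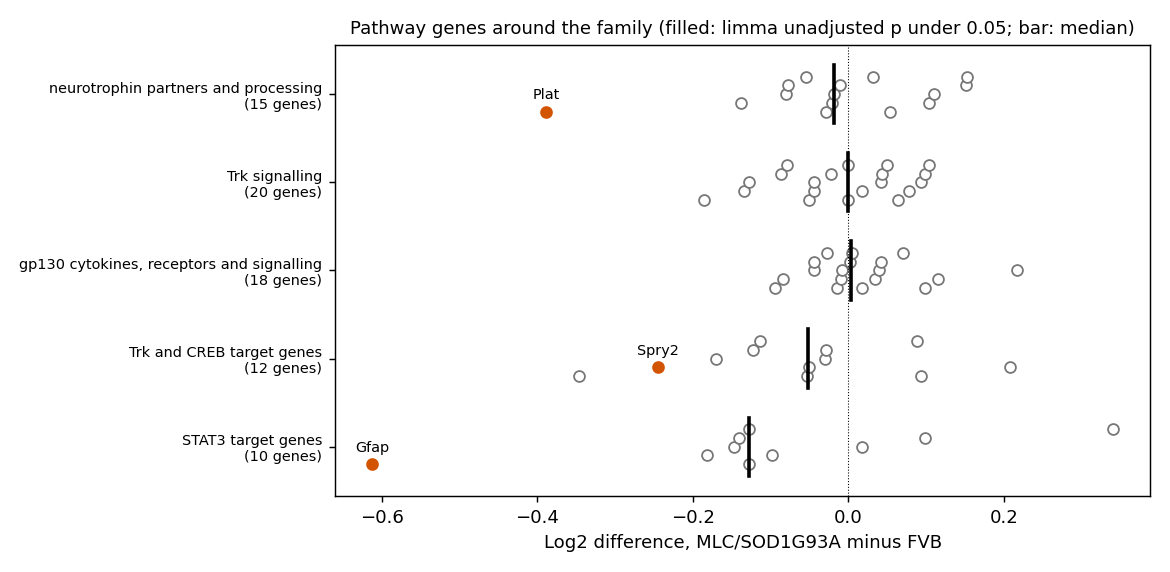
Log2 difference, MLC/SOD1G93A minus FVB, of every measured gene in the 5 pathway lists, 1 point per gene, with a bar at each list's median. Filled points are the 3 genes with a limma unadjusted p under 0.05, Plat, Spry2 and Gfap, all below 0.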

How the data were processed

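The log2 values deposited by the authors were RMA signals per transcript cluster with sketch quantile normalization, made in Affymetrix software (the processing notes name Affymetrix Expression Console and RMA). Genome build, filters and software versions are not given in the sources used here. No coordinates are therefore given. Because RMA gives all arrays nearly the same distribution, it would hide a change that most transcripts share. Arrays have no read depth, and their number limits the precision.

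The values were used without another normalization or filter. Symbols came from the platform annotation. A list gene was represented by its single-symbol row of highest mean. All 41345 clusters were fitted in R 4.3.3 with limma 3.58.1 (lmFit, eBayes), unpaired and without covariates as in the study's methods, with Benjamini-Hochberg adjustment. SE and intervals are limma's. Named genes were all member rows, at most 4 genes of lowest unadjusted p under 0.05 per pathway list, and the 3 genes most correlated with each of the 3 members of widest range. Of these members, Ntf5 was most like Sirt4, Ndufaf4 and Wdr55 (Pearson r of 0.966, 0.966 and 0.963 over 8 arrays). Members and lists were chosen with earlier results of these data known. Markers of other cell types were read as list means per array. The 2 sets of arrays with high and low sensory neuron markers were parted at a list mean of 5.5, after the data were seen.

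On simulated data for this comparison over 41345 clusters, in 5 runs, 29.2% of genes changed by 0.5, 68.4% of those changed by 1 and 97.2% of those changed by 2 on the log2 scale were called. These shares need not hold for rows of wide spread. In the measured data Hoxd11 differed by 1.73 and Hoxd10 by 1.31, with limma adjusted p of 0.708 and 0.684. Alternatives were another test, weights, filter or scaling, covariates, a replicate block, and each array left out in turn.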

Additional observations from a re-analysis of the deposited data

How the results depend on the processing

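Over 182 combinations of a member and an alternative, the difference kept its direction in 164, an unadjusted p under 0.05 came up in 13 and the lowest adjusted p was 0.548. Cntf, Lifr and Ntrk3 kept their direction in all 23 alternatives each.

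With each array left out in turn, the difference ran from −0.056 to 0.068 for Bdnf, −0.25 to 0.022 for Ntf5 (above 0 only without FVB replicate 1), −0.053 to 0.0048 for Cntfr (above 0 only without MLC/SOD1G93A replicate 2), 0.024 to 0.13 for Ntrk2, 0.06 to 0.10 for Ntrk3, 0.16 to 0.65 for Ngfr, 0.14 to 0.26 for Cntf and 0.14 to 0.29 for Lifr, and 0 or 1 members had an unadjusted p under 0.05. Other reversals were in Bdnf with the Xist covariate (0.019), the caudal Hox covariate (0.00063), without the arrays with low sensory markers (0.15) and without those with high Xist (0.19). Cntfr reversed after a second quantile normalization (0.0038), with the caudal Hox covariate (0.019) and without the arrays with low sensory markers (0.018). Ntrk2 reversed with the caudal Hox covariate (−0.030), without the low sensory arrays (−0.025) and without the high Xist arrays (−0.021), Ntf5 without the low sensory arrays (0.046) and Ngfr with the Schwann cell covariate (−0.74). The causes were not tested.

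The count of members with an unadjusted p under 0.05, 0 in the main comparison, was 2 by the methods' t-test, with the sensory set as a block and without the high Xist arrays. Over all clusters these settings gave 1423, 1502 and 1277 higher and 1379, 1256 and 1096 lower. The member count was 1 with trend and robust eBayes, without low clusters, with the Xist covariate, and without the high or the low sensory arrays. These settings gave 890 to 1507 clusters higher and 821 to 1410 lower. In the main comparison 1494 clusters were higher at this threshold, and 890 once dim clusters were left out, which tests fewer. The 1275 lower became 831 with the Schwann cell covariate, 822 with the caudal Hox covariate and 821 without the low sensory arrays. At the adjusted threshold 0 clusters became 1 without the high sensory arrays. Settings on sensory or Xist arrays as sets were added after seeing the data.

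Whether the replicate numbers pair the samples is not in the labels. Same-numbered arrays had correlations of −0.04, 0.18, −0.08 and 0.24 between their deviations from the group means. Differently numbered arrays had −0.25 to 0.16, and these few values do not settle the question. With the replicate block the Ngfr difference was 0.39 (limma unadjusted p = 0.358), and 0 members were under 0.05.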

Other observations

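The genotype differences of the other members were also read within the arrays with high and with low Xist. Among the 3 arrays with high Xist, MLC/SOD1G93A minus FVB was −0.29 for Bdnf, −0.22 for Ntf5, 0.16 for Ntrk2, −0.999 for Ngfr, 0.10 for Cntf and 0.027 for Cntfr. Among the 5 arrays with low Xist it was 0.19 for Bdnf, −0.07 for Ntf5, −0.021 for Ntrk2, 1.25 for Ngfr, 0.24 for Cntf and −0.028 for Cntfr. The single FVB array with high Xist, replicate 4, also had high sensory neuron markers (6.12) while both such MLC/SOD1G93A arrays had low ones (4.80 and 4.86), so for Ngfr these signs cannot be told apart from the sensory neuron markers. Ntrk3, whose genotypes do not overlap on any arrays, differed by 0.04 and 0.10. In the fit on the 5 arrays with low Xist, chosen after seeing the data, Ngfr had a limma unadjusted p of 0.0161 and an adjusted p of 0.769, and the others named here had unadjusted p of 0.0560 or more. The 3 arrays with high Xist, and the difference between the sets, were not tested.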
